A study of Mus musculus with 13 samples.

Results

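The glutathione transferases, glutathione peroxidases, peroxiredoxins, superoxide dismutases and thioredoxins were followed in epididymal fat and prostate tumours of mice. They were chosen by gene symbol (the Gsta, Gstk, Gstm, Gsto, Gstp, Gstt, Gstz, Mgst, Gpx, Prdx, Sod and Txn families), which gave the same 45 genes in the fat table of 23360 entries and in the tumour table of 24421 entries. The 12 families held 9 Gpx, 7 Gstm, 7 Prdx, 4 Gsta, 4 Gstt, 3 Mgst, 3 Sod, 2 Gsto, 2 Gstp, 2 Txn, 1 Gstk and 1 Gstz gene. The animals were C57BL/6 mice of 30 to 35 weeks on regular diet, and every group carried TRAMP, a transgene that drives a viral oncogene in the prostate epithelium from the probasin promoter. The control genotype was TRAMP+;p62f/f, with a floxed p62 gene, and is called wild type after its labels. The other genotype was TRAMP+;p62aP2KO, in which Cre from the aP2 (Fabp4) promoter was to remove p62 from adipocytes; aP2-driven Cre is known to act in some other cells too. Fat gave 3 libraries labelled wild type and 3 labelled knockout, and tumours gave 4 and 3, 13 in all. The series' title asks how p62 in adipocytes bears on metabolism in fat and in the tumour, so the genotypes were compared within each tissue and the effects of the tissues with each other.

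These families form the main enzymatic defence against peroxides and reactive electrophiles. Superoxide dismutases turn superoxide into hydrogen peroxide, which peroxidases and peroxiredoxins reduce to water with electrons from glutathione or thioredoxin, while glutathione transferases couple glutathione to electrophiles such as lipid aldehydes. In fat, lipid peroxides and their aldehydes are a main substrate, and Gpx3 is secreted into plasma. The protein p62, encoded by Sqstm1, is an autophagy receptor that binds Keap1 and so frees the transcription factor NRF2 (gene Nfe2l2), which together with small Maf proteins drives many of these genes through antioxidant response elements.

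Sqstm1, the targeted gene, did not follow the labels in every library. In fat it stood at 73.6, 1.77 and 84.3 FPKM in wild-type libraries 1 to 3 and at 4.53, 54.5 and 2.58 FPKM in knockout libraries 1 to 3. In tumours it stood at 173, 5.65, 167 and 151 CPM in wild-type libraries 1 to 4 and at 8.97, 176 and 19.5 CPM in knockout libraries 1 to 3. The libraries numbered 2 therefore went against their labels in both groups of both tissues, and wild type and knockout below mean the libraries labelled so; every direction given rests on those labels, and the counts are repeated without the libraries numbered 2. Tumour libraries held 1.78e+07 to 3.25e+07 counts, and the fat table gives no counts. Within fat, adipocyte markers were lower in the knockout group in 14 of 15 genes (summed level 23219 to 31132 FPKM in wild type, 12328 to 20490 FPKM in knockout), and macrophage markers were higher in 14 of 14 tested (1117 to 4587 FPKM against 3573 to 9110 FPKM). Within tumours, macrophage markers were higher in 15 of 15 (444 to 531 CPM against 717 to 3326 CPM), fibroblast markers in 10 of 10 (927 to 1949 CPM against 1974 to 10828 CPM), and cell cycle genes lower in 16 of 16 (1760 to 3889 CPM against 278 to 858 CPM). Each of these fat and tumour lists held 0 genes past the adjusted threshold. Over all genes tested, 49.5% were lower in knockout fat and 56.8% in knockout tumours. Prostate luminal markers summed to 39.5 to 206 FPKM in fat and to 4839 to 25272 CPM in tumours. In fat Pbsn and Sbp of that list were at 0 in every library. Its broader epithelial genes Krt18, Epcam and Cd24a reached 36.4, 38.0 and 55.0 FPKM in single fat libraries. Single tumour libraries also carried RNA of neighbouring organs or stood apart: the seminal vesicle gene Svs4 reached 27525 CPM in knockout 1 and 4.82 to 155 CPM in the others, Svs2 was at 8333 CPM in knockout 1, 2645 CPM in wild type 1 and 1.28 to 14.4 CPM in the others, the epididymal gene Crisp1 reached 2759 CPM in wild type 4 and at most 109 CPM elsewhere, and neuroendocrine markers summed to 1473 CPM in wild type 1 and 71.3 to 119 CPM elsewhere.

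In fat the 3 members with the highest mean FPKM over the 6 libraries were Gpx1 at 677 (range 476 to 893), the cytosolic selenium peroxidase, Mgst1 at 564 (234 to 758), a membrane-bound transferase, and Gstz1 at 553 (231 to 957), the maleylacetoacetate isomerase of tyrosine breakdown. The ranges of these 3 overlap, and they stood above Prdx5 in the 4th place, at 187 FPKM (107 to 253), although the lowest values of Mgst1 and Gstz1 lay within its range. At the other end, 9 members (Gpx2, Gpx2-ps1, Gpx5, Gpx6, Gsta1, Gsta2, Gstm3, Gsto2 and Gstt4) averaged under 1 FPKM and were not tested, and Gpx6 was listed at 0 in every library. In tumours, counted as CPM per kilobase of transcript so that genes can be compared, Prdx6, a peroxiredoxin that also has phospholipase activity, led at 847 (302 to 1465), ahead of Sod1 at 464 (299.5 to 1144), the copper-zinc dismutase of the cytosol, and Txn1, cytosolic thioredoxin, at 282 (172 to 811). These ranges overlap as well. Gstz1 was in the 22nd place there, at 42.2 CPM per kilobase. The tables are in different units and were not compared with each other in level.

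In fat, most tested members were lower in the knockout group, and none passed the threshold. Of 36 members tested, 29 (80.6%) had a lower mean log2 level in knockout, against 49.5% of all 13617 genes tested. At an unadjusted p under 0.05, 11 members (30.6%) were lower and 0 higher, against 8.14% and 6.88% of all genes. The 11 include Gstm6 and Gstm7, which passed the filter of 1 FPKM only through wild type; among the 34 members that averaged at least 1 FPKM in both groups, 9 (26.5%) were lower and 0 higher, against 8.16% and 6.86% of such genes. The groups did not overlap in 11 members that were lower (30.6%, against 11.3% of all genes) and in 1 that was higher (2.78%, against 9.87%), 12 in all (33.3%, against 21.2%). The median log2 fold change was -0.60 over the tested members and 0.01 over all genes. Gstm6 and Gstm7 are in these counts too. Of the 34 members without them, 27 had a lower value, 9 lay wholly lower and 1 wholly higher, with a median of -0.58. Of the 12781 such genes, 6292 had a lower value, 1442 lay wholly lower and 1248 wholly higher, with a median of 0.01. After adjustment over all genes with limma, 0 members and 1 gene in all (0.00734%) had an adjusted p under 0.05. Without the libraries numbered 2 the counts at an unadjusted p under 0.05 were again 11 lower and 0 higher, and without knockout library 2 alone they were 7 and 2. Adipocyte markers were lower and macrophage markers higher in the same comparison. Erythroid markers were higher in 5 of 5 tested (summed level 555 to 642 FPKM in wild type, 711 to 4620 FPKM in knockout), neuroendocrine markers in 11 of 11 (12.3 to 19.8 FPKM against 26.4 to 151 FPKM) and cell cycle genes in 15 of 15 (41.6 to 99.8 FPKM against 54.7 to 283 FPKM). The part of any of these lists in the members' values was not tested, and fewer cells of a type cannot be told apart from less RNA per cell in whole tissue.

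The mu-class transferases (Gstm) stood lower in knockout fat in every tested gene. Their 7 genes lie side by side on mouse chromosome 3, at chr3:107895821-108044894 (mm10), in the order Gstm5, Gstm7, Gstm6, Gstm3, Gstm2, Gstm1 and Gstm4 over 149074 bases. The 6 tested members had a median log2 fold change of -1.57, but Gstm6 and Gstm7 passed the filter of 1 FPKM only through wild type (means of 8.29 and 11.7 FPKM, against 0.403 and 0.447 FPKM in knockout). Of the 12781 genes that averaged at least 1 FPKM in both groups, 8.16% were lower at an unadjusted p under 0.05. Of the same genes, 1442 lay wholly lower. The other 4 tested mu-class members, with a median of -1.16, are among the 12781. Of these 4, 3 had an unadjusted p under 0.05 and 3 had groups that did not overlap. Gstm1, the most abundant, stood at 97.3, 93.3 and 163 FPKM in wild-type libraries 1 to 3 and at 73.9, 70.1 and 80.5 FPKM in knockout libraries 1 to 3 (limma log2 fold change -0.60, SE 0.28, adjusted p = 0.365). Gstm2 stood at 26.1, 27.0 and 45.1 FPKM against 15.9, 7.52 and 9.98 FPKM, a log2 fold change of -1.49 (SE 0.34; limma, adjusted p = 0.173). For both genes every knockout library lay below every wild-type library.

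The 4 remaining tested mu-class genes had lower means in knockout too. Gstm4 stood at 4.65, 4.79 and 8.25 FPKM in wild type and 2.104, 3.15 and 3.18 FPKM in knockout (-0.83, SE 0.29; limma, adjusted p = 0.268). Gstm5 stood at 29.5, 16.4 and 93.5 FPKM against 16.9, 7.63 and 9.51 FPKM (-1.65, SE 0.61; limma, adjusted p = 0.281), with wild type 2 just under knockout 1. In both genes, as in Gstm1 and Gstm2, wild-type library 3 was the highest. Gstm6 stood at 1.93, 2.52 and 20.4 FPKM against 0.186, 0.135 and 0.888 FPKM (-2.15, SE 0.75; limma, adjusted p = 0.264). Gstm7 stood at 1.33, 2.60 and 31.1 FPKM against 0.642, 0.698 and 0 FPKM (-2.20, SE 0.92; limma, adjusted p = 0.325). The values of Gstm6 and Gstm7 in knockout rest on few reads, an estimated 1.1 to 4.2 and 0 to 13.1 per library, as read from the steps between low values. Without wild-type library 3, the log2 fold changes of Gstm5, Gstm6 and Gstm7 were -0.97, -1.23 and -1.04. That library also had the highest levels of the epithelial genes Epcam (38.0 FPKM, against 0.343 to 18.2 FPKM in the other 5) and Krt18 (36.4 against 0.532 to 28.1 FPKM), and Ggt1 was at 21.1 FPKM there and at most 0.232 FPKM elsewhere; their part in these values was not tested. Among the epididymis and seminal vesicle markers, Crisp1 and Adam7 were at 0 and 0.109 FPKM in wild-type library 3. Lcn2 of that list was at 47.8 FPKM there, 41.8 FPKM in knockout 3 and 1.38 to 8.57 FPKM in the others. The part of such RNA was not tested either. Gstm3 was at 0.178 FPKM in wild-type library 3 and at 0 in the others.

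Promoters of the cluster are shown because its members stood lower together in fat and because the antioxidant response element is the textbook route from p62 to these genes. The core TGACNNNGC was searched on both strands in RefSeq windows (GRCm38.p6) from 250 bases before to 50 bases after each start site. It occurs in at least 1 window of 6 of the 39 members with a window (Gsta3, Gstm5, Gstm7, Mgst1, Prdx1 and Sod1), or 15.4%, and in 14.0% of all 27025 genes with one, so the shares are close. The windows below run 5′ to 3′ along the gene, with the core in capitals; the first base of the core lies 42 bases before the start site in Gstm5 (chr3:107895604-107895903, plus strand), 129 bases before it in Gstm7 (chr3:107931565-107931864, minus strand) and 133 bases before it in Prdx1 (chr4:116685349-116685648, plus strand), where it reads on the opposite strand. Gstm2 (chr3:107986371-107986670, minus strand) holds none in its window.
Gstm5: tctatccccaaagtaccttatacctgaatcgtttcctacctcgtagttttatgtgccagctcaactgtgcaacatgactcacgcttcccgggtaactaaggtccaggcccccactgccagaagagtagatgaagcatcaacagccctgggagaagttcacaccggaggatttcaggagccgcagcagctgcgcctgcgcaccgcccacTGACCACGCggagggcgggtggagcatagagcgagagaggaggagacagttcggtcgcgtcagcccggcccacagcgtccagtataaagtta
Gstm7: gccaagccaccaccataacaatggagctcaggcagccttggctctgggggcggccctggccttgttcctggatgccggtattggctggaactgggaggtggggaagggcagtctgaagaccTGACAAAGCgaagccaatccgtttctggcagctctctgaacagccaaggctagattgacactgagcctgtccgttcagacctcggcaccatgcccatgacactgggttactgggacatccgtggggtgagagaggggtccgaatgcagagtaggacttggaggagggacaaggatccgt
Gstm2: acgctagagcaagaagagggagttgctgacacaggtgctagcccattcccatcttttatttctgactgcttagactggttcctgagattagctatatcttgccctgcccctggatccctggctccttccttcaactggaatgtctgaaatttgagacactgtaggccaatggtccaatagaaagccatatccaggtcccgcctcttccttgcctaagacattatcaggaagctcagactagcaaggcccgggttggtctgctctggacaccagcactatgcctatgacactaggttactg
Prdx1: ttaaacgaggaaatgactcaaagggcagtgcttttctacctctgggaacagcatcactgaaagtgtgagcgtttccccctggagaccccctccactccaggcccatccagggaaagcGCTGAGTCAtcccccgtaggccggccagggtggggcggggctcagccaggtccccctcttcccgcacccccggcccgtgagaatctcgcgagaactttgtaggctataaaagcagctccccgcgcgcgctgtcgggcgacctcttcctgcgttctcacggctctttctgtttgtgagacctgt
Among mu-class genes that averaged at least 1 FPKM in both fat groups, Gstm5 holds the core and had a log2 fold change of -1.65. Gstm1, Gstm2 and Gstm4 hold none in these windows and had values from -1.49 to -0.60. Gstm7, with the core, and Gstm6, without it, were at -2.20 and -2.15, but passed the filter only through wild type. Whether the core bears on these values was not tested. Prdx1, with the core, was at -0.44.

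Outside the mu class, the single zeta-class gene stood lower in fat by a similar amount. Gstz1 stood at 957, 635 and 829.6 FPKM in wild type and at 239, 231 and 425 FPKM in knockout (limma log2 fold change -1.47, SE 0.36, adjusted p = 0.195), so its mean was 807 ± 162 FPKM (SD, n = 3) against 298 ± 109.7 FPKM (SD, n = 3), with no overlap; its exons overlap those of Pomt2 on the other strand, which share 3.35% of its 75-base windows. The kappa-class gene Gstk1, whose protein sits in mitochondria and peroxisomes, stood at 22.2, 4.60 and 16.4 FPKM against 4.38, 5.55 and 5.79 FPKM (-1.08, SE 0.50; limma, adjusted p = 0.362), and wild type 2 lay among the knockout values. Gsta3, the most abundant alpha-class gene, stood at 278, 48.8 and 192 FPKM against 76.1, 14.1 and 120.1 FPKM (-1.42, SE 0.90; limma, adjusted p = 0.483). Library 2 was the lowest of each group in Gsta3, and the groups overlapped; the value was -0.52 without knockout 2 and -2.16 without wild type 2. Gsta4, which removes the lipid aldehyde hydroxynonenal, ranged from 4.43 to 60.4 FPKM in wild type and from 10.4 to 24.5 FPKM in knockout (-0.49, SE 0.92).

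The omega, pi and theta classes showed no common direction. Gsto1, which reduces dehydroascorbate, stood at 54.5, 52.0 and 39.5 FPKM in wild type and 64.4, 44.8 and 54.3 FPKM in knockout (0.16, SE 0.25; limma, adjusted p = 0.787). Gstp1 stood at 15.9, 3.82 and 11.8 FPKM against 8.16, 3.67 and 10.5 FPKM (-0.36, SE 0.53; limma, adjusted p = 0.771); 57.7% of the 75-base windows of its transcript also occur in another gene, mostly Gstp2, so the counts of this pair are uncertain. Both overlapped between groups. Gstt1 stood at 22.9, 16.8 and 39.2 FPKM against 20.98, 8.91 and 16.7 FPKM (-0.72, SE 0.40; limma, adjusted p = 0.439). Its neighbour Gstt2, with 16.7, 6.01 and 14.6 FPKM against 23.5, 8.19 and 28.7 FPKM, leaned the other way (0.60, SE 0.53; limma, adjusted p = 0.616).

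All 3 microsomal transferases were lower in knockout fat without passing the threshold, with a median log2 fold change of -0.82. Over all genes tested in fat, 49.5% were lower. Mgst1 stood at 758, 746 and 606 FPKM against 472, 234 and 566 FPKM (-0.82, SE 0.40; limma, adjusted p = 0.387), and the groups did not overlap, with knockout 3 close under wild type 3 and knockout 2 far below the rest. Mgst3 ranged from 40.7 to 63.7 FPKM in wild type and 25.2 to 38.0 FPKM in knockout (-0.59, SE 0.27), again without overlap. Mgst2, linked to leukotriene C4 synthesis, overlapped (-0.89, SE 0.50).

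**Figure D1:**
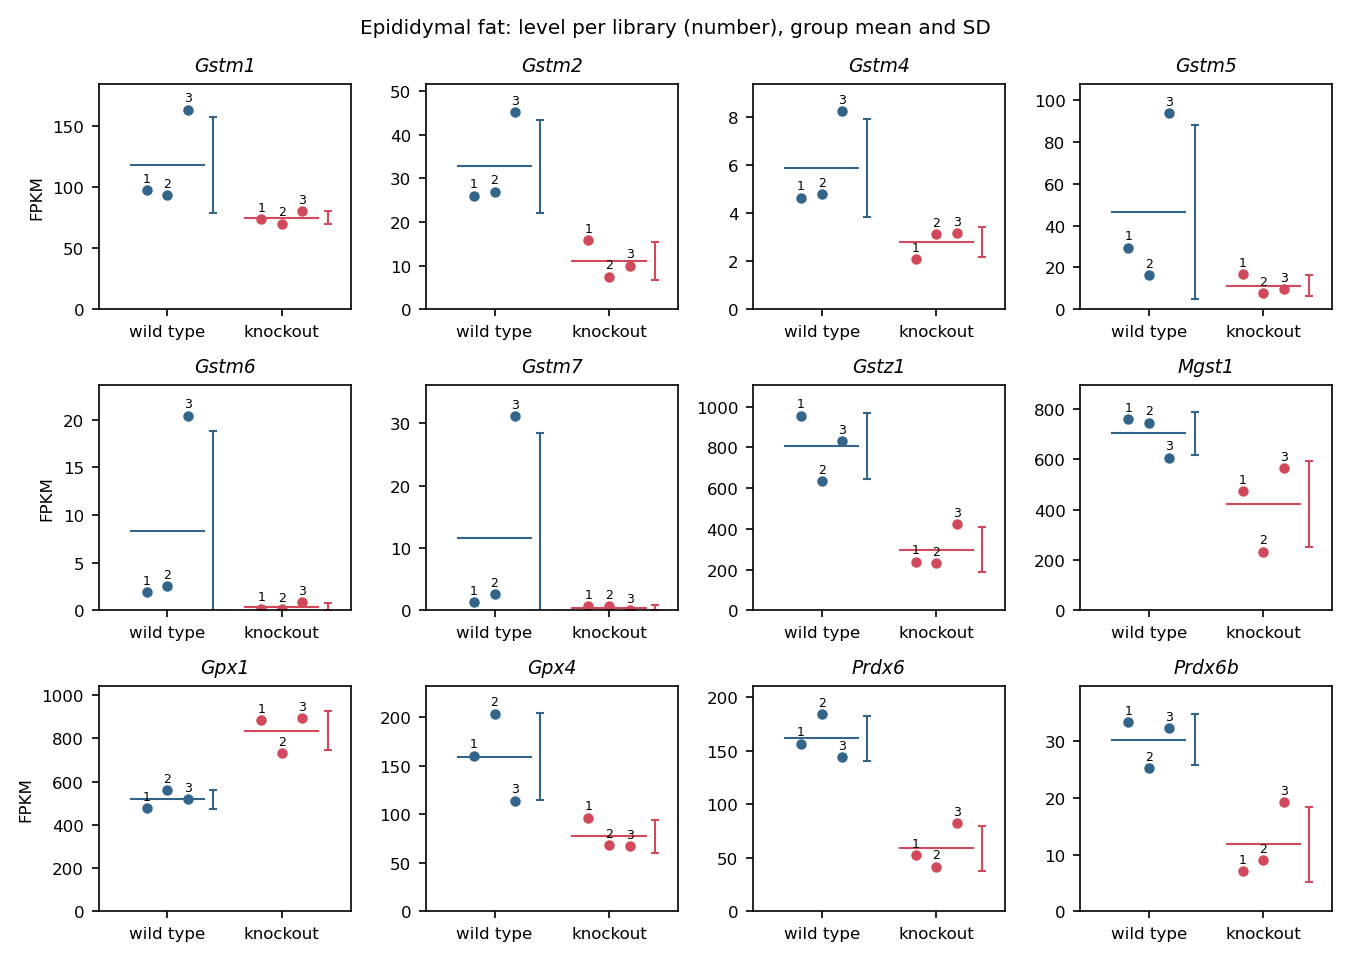
Levels of 12 members in epididymal fat, in FPKM on linear axes that start at 0; each point is a library with its number, the horizontal lines are group means and the bars their SD (n = 3, cut at 0). The 3 knockout libraries lie under the 3 wild-type libraries in every panel but Gstm5, where 16.4 and 16.9 FPKM cross, and Gpx1, where they lie above.

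The glutathione peroxidases had no common direction in fat: of 5 tested, 2 were lower and 3 higher. Gpx1 was the only member whose knockout libraries lay wholly above the wild-type ones, at 883, 730.5 and 893 FPKM against 476, 561 and 518 FPKM (limma log2 fold change 0.69, SE 0.30, adjusted p = 0.342). Gpx4, which reduces phospholipid peroxides in membranes and restrains ferroptosis, lay wholly below, at 96.4, 68.2 and 66.8 FPKM against 160.3, 203 and 114 FPKM (-1.02, SE 0.30; limma, adjusted p = 0.227). Of the 75-base windows of the Gpx4 transcript, 62.4% also occur in pseudogenes such as Gpx4-ps2, so its level depends on how shared reads were assigned. The secreted Gpx3 stood at 62.1, 55.6 and 215 FPKM in wild type and 157, 53.6 and 219 FPKM in knockout (0.43, SE 0.67; limma, adjusted p = 0.785), with library 3 high and library 2 low in each group, and a range of 0.016 to 1.05 when single libraries were left out. Gpx7 and Gpx8, which act in the endoplasmic reticulum, had log2 fold changes of -0.18 (SE 0.22) and 0.29 (SE 0.24). Gpx5, an epididymal secretory peroxidase, was at 5.25 FPKM in wild type 2, where the epididymal gene Adam7 was at 2.05 FPKM, and at most 0.148 FPKM elsewhere.

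Among the peroxiredoxins, Prdx6 and the related gene Prdx6b had the lowest log2 fold changes in fat. Prdx6 stood at 157, 185 and 144 FPKM in wild type and 52.8, 41.9 and 82.4 FPKM in knockout (limma log2 fold change -1.49, SE 0.30, adjusted p = 0.173). Prdx6b stood at 33.4, 25.2 and 32.3 FPKM against 7.11, 8.98 and 19.3 FPKM (-1.40, SE 0.36; limma, adjusted p = 0.200). Neither pair of groups overlapped, and no 75-base window of either transcript occurs in another gene. Prdx1, a cytosolic peroxiredoxin, stood at 68.7, 123 and 54.8 FPKM against 119, 43.4 and 35.4 FPKM (-0.44, SE 0.51; limma, adjusted p = 0.708), and without the libraries numbered 2 its log2 fold change was 0.09. Prdx5, of mitochondria and peroxisomes, stood at 158, 253 and 186 FPKM against 202, 214 and 107 FPKM (-0.23, SE 0.36; limma, adjusted p = 0.785). These 2 genes overlapped between groups, as did Prdx2, Prdx3 and Prdx4, whose log2 fold changes ran from -0.35 to 0.14.

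Of the dismutases, the mitochondrial Sod2 was the lower one in fat, at 61.6, 99.8 and 56.9 FPKM in wild type and 28.4, 57.0 and 29.6 FPKM in knockout (-0.94, SE 0.35; limma, adjusted p = 0.288). Library 2 was the highest of each group, so the groups touched. Sod1 overlapped, at 94.0 to 103 FPKM against 89.3 to 121 FPKM (0.01, SE 0.23). The extracellular Sod3 stood at 75.8, 109 and 95.2 FPKM against 35.2, 105 and 190.1 FPKM (-0.05, SE 0.57; limma, adjusted p = 0.979), with knockout 1 below, knockout 2 within and knockout 3 above the wild-type range. Txn1 stood at 38.3, 46.9 and 28.7 FPKM against 30.9, 14.8 and 20.6 FPKM (-0.79, SE 0.32; limma, adjusted p = 0.313), and the mitochondrial Txn2 overlapped (-0.15, SE 0.39).

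The enzymes that feed these families were counted from lists, and 0 of them had an adjusted p under 0.05 in fat. For the counts below, 49.5% of all genes tested in fat were lower. At an unadjusted p under 0.05, 8.14% of all genes were lower and 6.88% higher. NADPH supply, which both systems need, had 8 of 11 tested genes lower, 3 of them at an unadjusted p under 0.05, and a median of -0.51. Me1, the cytosolic malic enzyme, stood at 98.3, 75.8 and 95.3 FPKM in wild type and 3.998, 9.64 and 16.3 FPKM in knockout (limma log2 fold change -3.21, SE 0.43, adjusted p = 0.127), and Pgd and Tkt of the pentose phosphate pathway were at -0.89 and -1.39. In glutathione synthesis and recycling 8 of 16 were lower and 8 higher (median -0.08): the cysteine-forming Cth (-1.13) and the mitochondrial glutathione importer Slc25a39 (-1.21) were lower and the peptidases Anpep (1.16) and Dpep1 (1.26) higher at an unadjusted p under 0.05, while Gclc (0.04), Gclm (-0.29) and Gsr (0.30) were not. In the thioredoxin and glutaredoxin system 10 of 17 were higher (median 0.09), among them Srxn1 (0.77), which repairs peroxiredoxins, and Txnip (1.22), which binds thioredoxin, with Txnrd3 (-0.81) lower and Txnrd1 at 0.38. Among the NRF2 pathway genes 7 of 11 were higher (median 0.13): Nfe2l2 (0.13) and Keap1 (-0.06) differed by less than their SE of 0.22, whereas Maff (1.13), Mafg (0.97), Mafk (1.08) and the repressor Bach1 (0.55) were higher at an unadjusted p under 0.05.

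Other peroxide and haem genes split in fat, with 11 of 19 higher and a median of 0.60. Hmox1, haem oxygenase, stood at 37.7, 40.03 and 20.3 FPKM against 249, 105 and 146 FPKM (2.28, SE 0.40; limma, adjusted p = 0.161), and the ferritin gene Fth1 was at 1.05. Catalase (Cat) lay wholly lower, at 254 to 326 FPKM against 119 to 236 FPKM (-0.70, SE 0.33), and the methionine sulfoxide reductases Msra (-0.90), Msrb1 (-1.34) and Msrb2 (-0.83) were lower at an unadjusted p under 0.05, with Nqo1 at 0.29. Of the selenoprotein synthesis genes 4 of 7 were lower (median -0.22), Sepsecs (-0.64) at an unadjusted p under 0.05, and Secisbp2 (0.54) and Trit1 (0.59) were higher. All 7 tested oxidant-producing genes, mostly phagocyte NADPH oxidase subunits, were higher (median 1.095), among them Cyba (1.96) and Ncf1 (1.40) at an unadjusted p under 0.05, beside the higher macrophage markers given above.

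**Figure D2:**
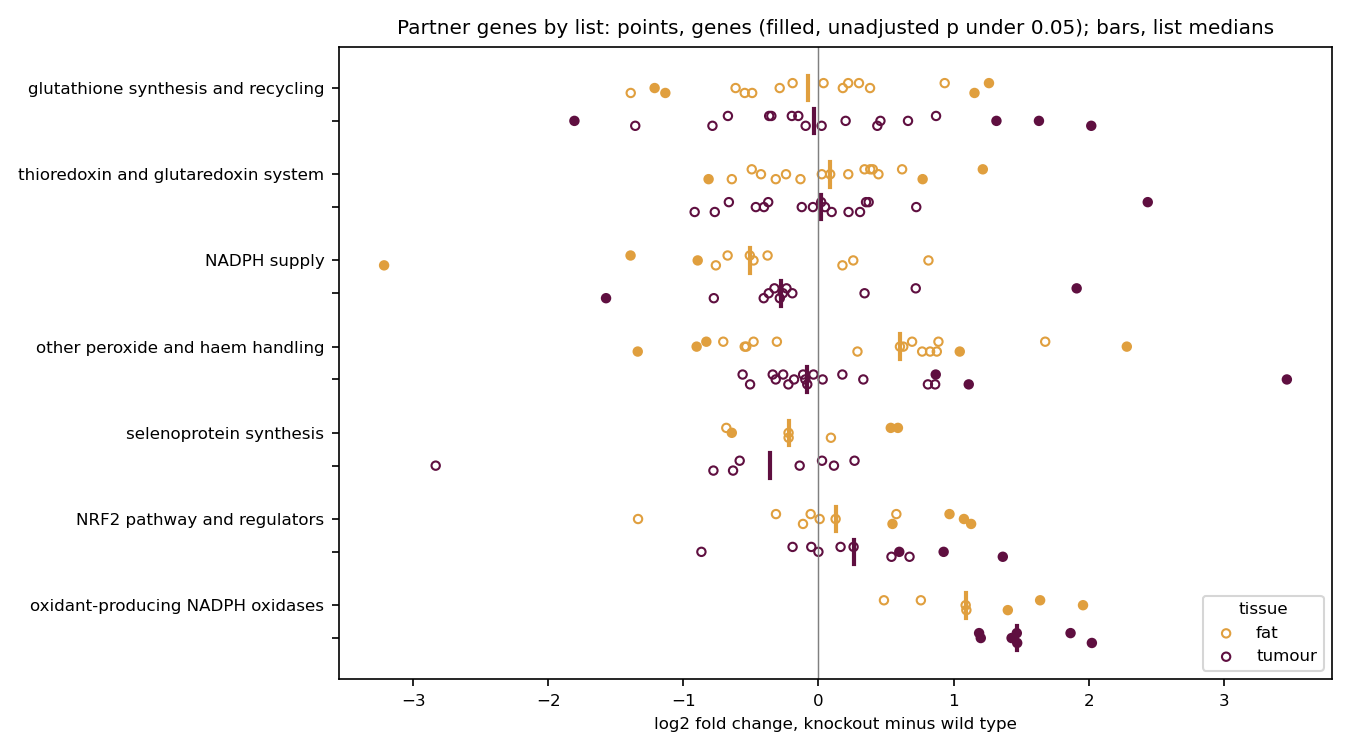
Log2 fold change, knockout minus wild type, of the partner genes in 7 lists, fat in orange and tumour in purple; each point is a gene, filled where the unadjusted p was under 0.05, and the vertical bars are list medians. The oxidant-producing list lies to the right of 0 in both tissues, and NADPH supply has medians of -0.51 in fat and -0.27 in tumour.

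In tumours the members split, and none passed the threshold in the test by edgeR. Of 39 tested, 22 (56.4%) were lower in knockout, against 56.8% of all 15117 genes tested. At an unadjusted p under 0.05, 3 members (7.69%) were lower and 4 (10.3%) higher, against 6.26% and 6.17% of all genes, so the share that was lower lay near the background. The groups did not overlap in 3 members that were lower (7.69%, against 7.05% of all genes) and 1 that was higher (2.56%, against 6.69%). The median log2 fold change was -0.19 over the members and -0.07 over all genes. By edgeR 0 genes in all (0.0%) and by limma voom 0 had an adjusted p under 0.05, while DESeq2 called 772 genes in all (5.32%), among them 1 member, Prdx4. Single libraries moved the counts at an unadjusted p under 0.05: 6 were lower and 1 higher without wild type 1, 0 lower and 2 higher without knockout 1, 0 lower without knockout 3, and 1 higher without wild type 2. Without the libraries numbered 2 the counts were 2 lower and 4 higher, and with the replicate number as a block 1 lower and 3 higher.

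The log2 fold changes of all 7 peroxiredoxins were below 0 in tumours, with a median of -0.46. Over all genes tested, 56.8% were lower and the median was -0.07. Only 1 of the 7, Prdx4, was lower at an unadjusted p under 0.05, and Prdx1 and Prdx6 changed direction without wild type 3. Prdx4, the peroxiredoxin of the secretory pathway, stood at 162, 221, 702 and 288 CPM in wild-type libraries 1 to 4 and at 89.1, 142 and 104 CPM in knockout libraries 1 to 3 (log2 fold change -1.62, SE 0.52; edgeR, adjusted p = 0.271; DESeq2, adjusted p = 0.0396). Every knockout library lay below every wild-type library, and without wild type 3, the highest, the value was -0.99. Prdx1 stood at 321, 469.8, 1170.1 and 459.6 CPM against 392, 435 and 494 CPM (-0.46, SE 0.45; edgeR, adjusted p = 0.722), and without wild type 3 the value was 0.09. Prdx6 stood at 2006, 2499.9, 3497 and 721 CPM against 2544, 875 and 2003 CPM (-0.27, SE 0.59; edgeR, adjusted p = 0.883), and its direction turned to 0.06 without wild type 3 or knockout 2 and to 0.13 without the libraries numbered 2. Prdx6b was at 0.426, 0.502, 0.566 and 13.1 CPM against 0.454, 0.116 and 0.508 CPM (-3.35, SE 1.51; edgeR, adjusted p = 0.421), so its fold rests on wild type 4, the library with epididymal RNA. In Prdx2, Prdx3 and Prdx5, too, wild type 3 was the highest library, and all 3 overlapped between groups.

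Sod1, Sod2, Txn1 and Txn2 in tumours were also highest in wild-type library 3, whereas Sod3 was lowest there. Sod1 stood at 193, 204, 733 and 248 CPM in wild type and 268, 192 and 242 CPM in knockout (-0.56, SE 0.50; edgeR, adjusted p = 0.695; 0.13 without wild type 3). Txn1 stood at 192, 229, 852 and 217 CPM against 181, 201 and 201 CPM (-0.94, SE 0.56; edgeR, adjusted p = 0.547; -0.12 without wild type 3). Sod2 was at 99.9 to 196 CPM against 86.9 to 93.2 CPM, a small step without overlap (-0.49, SE 0.28). Sod3, extracellular dismutase, leaned the other way from the rest, at 6.77, 9.28, 6.58 and 13.6 CPM against 13.1, 39.1 and 20.9 CPM (1.43, SE 0.45; edgeR, adjusted p = 0.264). The groups touched between wild type 4 and knockout 1, and fibroblast markers were highest in knockout 2, where Sod3 was highest; their part was not tested.

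The glutathione peroxidases leaned higher in knockout tumours, 5 of 6 tested with a median of 0.57. Over all genes tested, 56.8% were lower and the median was -0.07. Gpx8 was the only member wholly above, at 40.6, 29.0 and 29.7 CPM against 11.0, 15.2, 28.8 and 13.8 CPM (0.95, SE 0.37; edgeR, adjusted p = 0.356), with wild type 3 just under the knockout libraries. Gpx1, the most abundant per length, stood at 107, 171, 332 and 164 CPM against 195, 250.3 and 181 CPM (0.11, SE 0.38; edgeR, adjusted p = 0.928), and its sign turned without wild type 1, without knockout 2 and without the libraries numbered 2. Gpx3 stood at 98.0, 57.0, 124 and 441 CPM against 491, 181 and 184 CPM (0.66, SE 0.71; edgeR, adjusted p = 0.745), highest in knockout 1 and wild type 4; the value was 0.024 without knockout 1 and 1.62 without wild type 4. Gpx2, an epithelial selenium peroxidase, stood at 0.906, 3.51, 11.4 and 3.44 CPM against 32.004, 4.61 and 3.55 CPM (1.48, SE 0.99; edgeR, adjusted p = 0.597), and the value was -0.23 without knockout 1. Gpx4 overlapped (-0.41, SE 0.34).

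**Figure D3:**
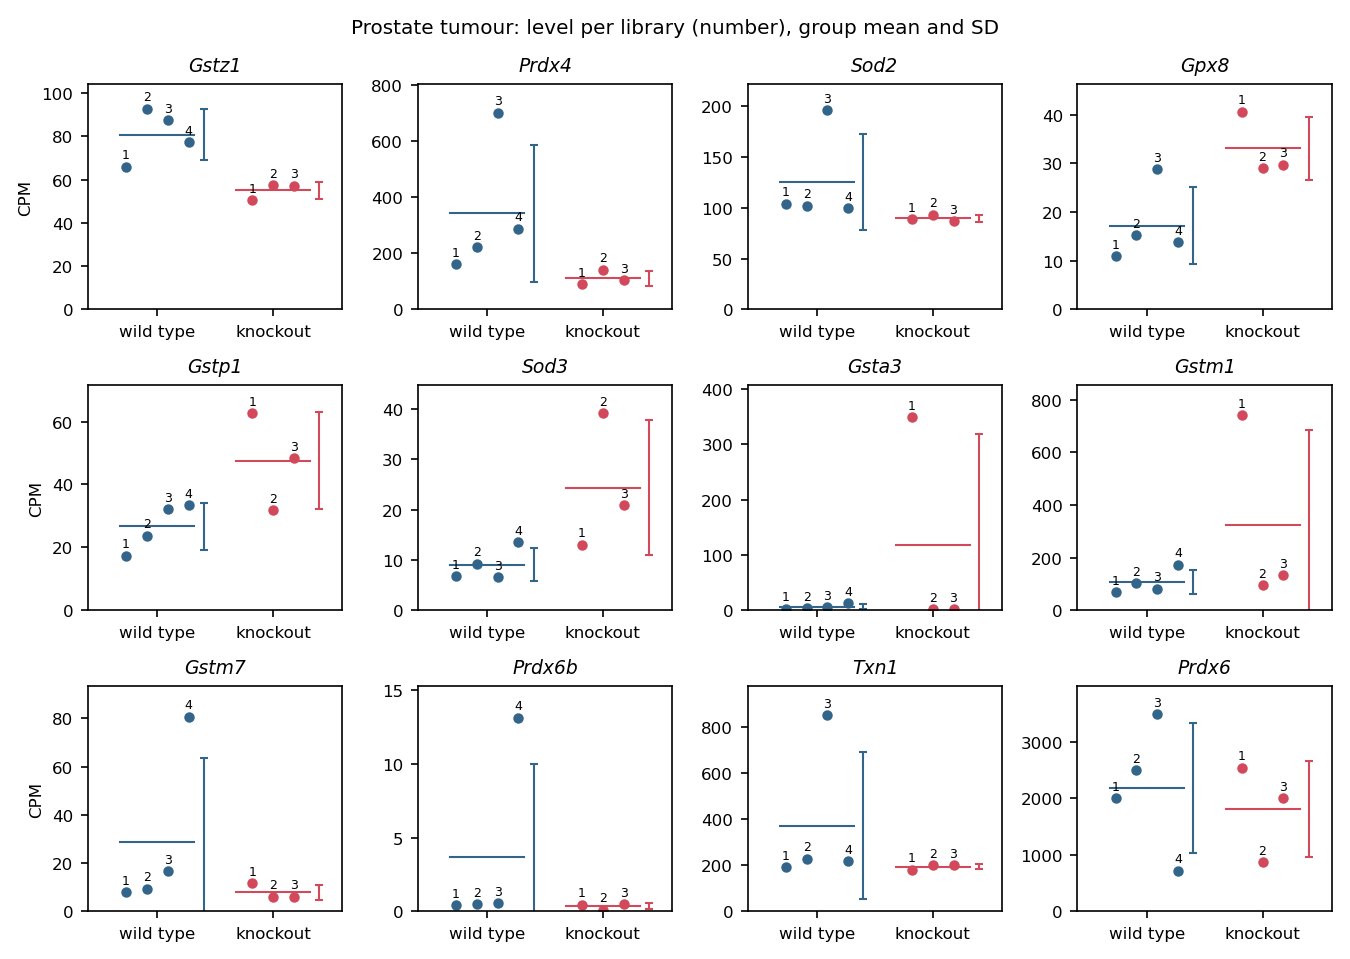
Levels of 12 members in prostate tumours, in CPM on linear axes that start at 0; each point is a library with its number, the horizontal lines are group means and the bars their SD (n = 4 wild type, n = 3 knockout, cut at 0). Gstz1, Prdx4 and Sod2 lie wholly lower and Gpx8 wholly higher in knockout; Gsta3 and Gstm1 stand high in knockout 1, Gstm7 and Prdx6b in wild type 4, and Txn1 in wild type 3.

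Among the transferases, Gstz1 was lower in knockout tumours as it was in fat. It stood at 66.0, 92.9, 87.4 and 77.2 CPM against 50.4, 57.5 and 57.3 CPM (-0.55, SE 0.19; edgeR, adjusted p = 0.297), with no overlap and a range of -0.64 to -0.48 when single libraries were left out. Gstp1, the pi-class enzyme of epithelia, stood at 17.4, 23.8, 32.1 and 33.5 CPM against 62.5, 31.9 and 48.4 CPM (0.83, SE 0.32; edgeR, adjusted p = 0.356), and only knockout 2 lay within the wild-type range. Gsta3 was at 3.20, 3.89, 6.37 and 13.6 CPM against 349.6, 2.03 and 2.83 CPM (4.12, SE 1.62; edgeR, adjusted p = 0.359), and its value was -1.47 without knockout 1, the library with the most seminal vesicle RNA. Epididymis and seminal vesicle markers summed to 48408 CPM there, 3824 CPM in wild type 1 and 42.3 to 3054 CPM in the other tumours. Their part was not tested. Gstm1 was likewise high in knockout 1, at 68.6, 104, 82.7 and 174 CPM against 741, 95.2 and 133 CPM (1.59, SE 0.70; edgeR, adjusted p = 0.412; 0.09 without knockout 1).

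The mu class as a whole had no common direction in tumours, with 4 of 6 tested lower. Gstm5 stood at 68.6, 33.5, 73.5 and 94.0 CPM against 31.7, 34.9 and 46.2 CPM (-0.84, SE 0.35; edgeR, adjusted p = 0.381), with wild type 2 among the knockout values; 11.9% of its 75-base windows also occur in 4933431E20Rik, which overlaps it on the other strand. Gstm7 stood at 7.89, 9.45, 16.7 and 80.8 CPM against 11.6, 6.07 and 6.18 CPM (-1.85, SE 0.87; edgeR, adjusted p = 0.437), and at -0.52 without wild type 4. Gstm2 and Gstm4 were at 0.02 and -0.10. Gsta4 stood at 27.2, 92.6, 235 and 218 CPM against 225, 117 and 105 CPM (0.06, SE 0.66; edgeR, adjusted p = 0.982), and Gstk1 at 16.8, 33.6, 111 and 39.3 CPM against 20.5, 25.8 and 30.1 CPM (-0.98, SE 0.59; edgeR, adjusted p = 0.553). Both overlapped. Gsto1 stood at 65.5, 121, 255 and 198 CPM against 121, 107 and 61.7 CPM (-0.73, SE 0.47; edgeR, adjusted p = 0.573), Gstt3 at 63.0, 135, 142 and 119 CPM against 156, 81.1 and 112 CPM (0.02, SE 0.34; edgeR, adjusted p = 0.987), and Mgst1 at 47.6, 126, 201 and 134 CPM against 297, 176 and 122 CPM (0.64, SE 0.48; edgeR, adjusted p = 0.637). None of these 3 separated the groups.

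**Figure D4:**
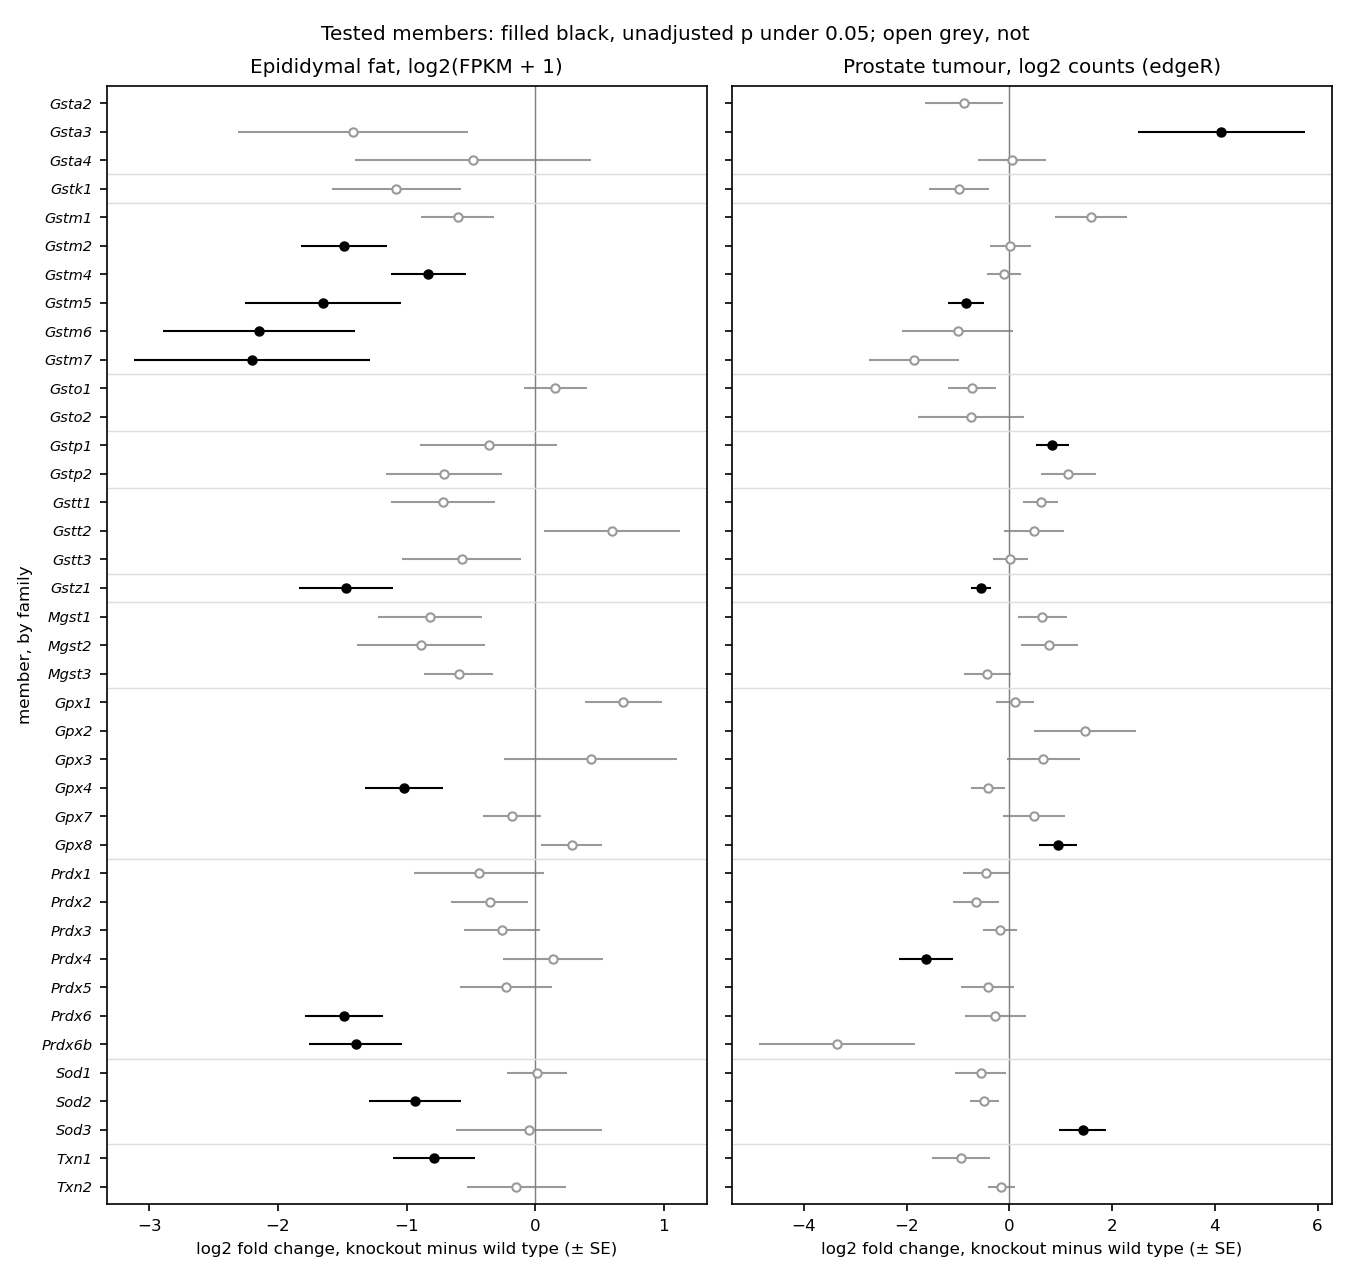
Log2 fold change, knockout minus wild type, with SE as bars, of the members tested in fat (left, limma on log2(FPKM + 1)) and in tumours (right, edgeR), in rows by family; filled black points had an unadjusted p under 0.05 and no point had an adjusted p under 0.05. In fat 29 of 36 points lie left of 0; in tumours 22 of 39 do, and the 2 axes differ in range.

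In the partner lists of tumours, too, 0 genes had an adjusted p under 0.05 by edgeR. For the counts below, 56.8% of all genes tested in tumours were lower. At an unadjusted p under 0.05, 6.26% of all genes were lower and 6.17% higher. Among NRF2 pathway genes 8 of 11 were higher (median 0.26), with Nfe2l2 at 36.8, 56.3, 71.3 and 58.7 CPM in wild type and 128, 107 and 83.1 CPM in knockout (0.93, SE 0.27; edgeR, adjusted p = 0.235), Maff (1.36) and Mafk (0.60) also at an unadjusted p under 0.05, and Keap1 at -0.19. Hmox1 was at 3.47, the ferritin chains Fth1 and Ftl1 at 1.11 and 0.87, and Cat at -0.56; the list of other peroxide and haem genes had 8 of 19 higher and a median of -0.08. In glutathione synthesis and recycling, with 9 of 18 higher and a median of -0.04, the cystine carrier Slc7a11 (1.32), Ggt5 (1.63) and Dpep1 (2.02) were higher and Cth (-1.81) lower at an unadjusted p under 0.05, and Gsr was at -0.20. Gclc and Gclm, which make glutathione's first intermediate, were at 253 and 237 CPM in knockout 1 and at 49.9 to 74.4 CPM and 61.5 to 89.7 CPM in the other tumours; Nqo1 was likewise highest there, at 37.1 CPM. Txnip was at 2.44, Txnrd1 at 0.02 and Srxn1 at 0.31 in a list with 9 of 17 higher (median 0.02). NADPH supply had 9 of 12 lower (median -0.27), with Mthfd2 at -1.57 and Idh1 at 1.91. Selenoprotein synthesis had 5 of 8 lower (median -0.36). All 7 tested oxidant-producing genes were higher at an unadjusted p under 0.05 (median 1.47), among them Cyba, Cybb and Nox4, beside the higher macrophage markers, whose part was not tested.

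The effect in fat minus the effect in tumours was tested for the 36 members measured in both, in 1 limma fit of the 13 libraries on the log2(FPKM + 1) and log2(CPM + 1) scales. None had an adjusted p under 0.05, nor did any of the 12390 genes (0.0%). At an unadjusted p under 0.05, 6 members (16.7%) had the lower effect in fat and 1 (2.78%) the higher, against 5.92% and 5.79% of all genes. At any p, 30 (83.3%) had the lower effect in fat, against 51.0%. The median difference was -0.65 against -0.02. The 36 include Gstm6 (-1.37) and Gstm7 (-1.05), which passed the fat filter only through wild type. Both are in the 30 and in the median, which were not taken again without them. The 6 were Gstm2 (-1.44, SE 0.54; limma, adjusted p = 0.3004), Gstp2 (-1.28, SE 0.59), Gstt1 (-1.30, SE 0.53), Gstz1 (-0.93, SE 0.37), Mgst1 (-1.53, SE 0.67) and Mgst2 (-1.54, SE 0.64), each a transferase. For Gstp2, Mgst2, Mgst1 and Gstt1 the edgeR value in tumours lay on the other side of 0 (1.15, 0.78, 0.64 and 0.61). For Gstm2 it was 0.02, whereas Gstz1 was lower in both tissues. The edgeR values come from another fit than the differences and do not subtract to them. Tumour libraries held 10 to 61 counts of Gstp2, with 68.2% of its 75-base windows shared with other genes, and 18 to 130 counts of Mgst2. The 1 with the higher effect in fat was Prdx4 (1.55, SE 0.65; limma, adjusted p = 0.372), which was at 0.14 in fat. Prdx6 was at -1.49 in fat and overlapped in tumours, and its difference of -1.29 (SE 0.73; limma, adjusted p = 0.534) had an unadjusted p above 0.05. The count of 6 became 2 without fat wild type 1, fat wild type 3 or tumour wild type 1, and 0 without fat knockout 2; the count of 1 became 0 without fat wild type 3, fat knockout 1, tumour knockout 1 or tumour knockout 3, and 2 without tumour wild type 1. Without the libraries numbered 2 the counts were 4 and 1.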

How the data were processed

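STAR and DESeq2 are listed in the submitters' processing notes with the build mm10, with no version or role; per the labels, polyadenylated RNA was sequenced with a directional kit as single-end reads of 75 bases, and which counter and annotation were used, and whether strand was, is not given in the sources used here. Whole-number counts per gene make up the deposited tumour table. The deposited fat table names no unit: its values were read as FPKM because they have decimals, add up to between 1.11e+06 and 2.11e+06 per library and fall on steps that depend on the gene. Symbols turned into dates by a spreadsheet number 27 in the fat table and 13 in the tumour table, and none is a member.

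Fat was tested with limma 3.58.1 (trend, R 4.3.3) on log2(FPKM + 1), which understates changes of low genes, keeping genes that averaged 1 FPKM or more. For tumour counts the test was that of edgeR 4.0.16 (TMM, quasi-likelihood test after filterByExpr at its minimum of 10 counts); CPM are after TMM. The difference of effects was tested with limma on log2(FPKM + 1) and log2(CPM + 1). Tests are two-sided, adjusted by Benjamini-Hochberg over all genes tested. Single genes took no separate permutation test, since the smallest exact p with 3 against 3 libraries is 0.1. Alternatives were DESeq2 1.42.0, limma voom, other size factors, filters and pseudocounts, quantile normalization, a replicate block, and left-out libraries. The count over genes that averaged at least 1 FPKM in both groups was added after seeing the data. The scripts were tested on simulated data.

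Members and gene lists were chosen with earlier results of these data known. In each tissue a member is given in every library if it is Gstm1, Gpx3 or Prdx1, leads its family in level, has an unadjusted p under 0.05 or is among the 3 largest changes in either direction; partner genes are named at an unadjusted p under 0.05 or as fixed core genes. Other genes were named after their values were seen. Whether each library came from its own mouse is not in the labels, so p-values measure only the spread between libraries. Deviations from the group mean in same-numbered tumour libraries of both genotypes had correlations of 0.181, 0.127 and 0.278 over genes. The labels give no pairing, and the main tests used none. A block by number was only an alternative, and in tumours it left out wild type 4, which has no partner. Shared windows and transcript lengths come from GENCODE M21, of the same assembly as mm10; fat reads were estimated from the steps between low FPKM. Protein sequences were not used here. A gene that is counted in the partner lists is left unnamed in the text. The lists of granulocyte, endothelial, mesothelial, muscle, erythroid, lymphoid and prostate basal markers had medians in fat of -0.10, 0.14, -0.23, -0.12, 2.81, -0.30 and -0.35, and in tumours of 2.21, 1.11, 1.83, -0.18, 1.35, 0.80 and 0.87; the neuroendocrine medians were 1.27 and -2.41, those of epididymis and seminal vesicle markers -0.98 and 4.37, those of prostate luminal markers 0.79 and -0.48, of fibroblast markers 0.25 and 1.67, and of cell cycle genes 1.21 and -2.41.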

Additional observations from a re-analysis of the deposited data

Results flagged for a closer look

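Values that stood far from the rest of their group were looked for in the 4 wild-type tumours, the only group of 4; chance alone would pick out about 1 group in 20. Of the 45 members 12 (26.7%) were picked out, against 29.8% of the 20299 genes that varied and 19.7% of the 15117 genes tested, so the share is near that of all genes. Of these 12, 6 were high in wild type 4, the library with epididymal RNA: Gpx5 at 1.63 CPM, Gpx6 at 0.956 CPM, Gstm6 at 15.9 CPM, Gstm7 at 80.8 CPM, Gstt4 at 9.04 CPM and Prdx6b at 13.1 CPM. In the other 3 wild-type tumours Gpx5 and Gpx6 were at 0, Gstm6 at 2.35 to 2.59 CPM, Gstm7 at 7.89 to 16.7 CPM, Gstt4 at 0 to 0.637 CPM and Prdx6b at 0.426 to 0.566 CPM, while Crisp1 was at 2759 CPM in wild type 4 and 0.585 to 109 CPM in them. The other 6 were high in wild type 3: Gstm3 at 0.354 CPM, Prdx2 at 613 CPM, Sod1 at 733 CPM, Sod2 at 196 CPM, Txn1 at 852 CPM and Txn2 at 119.97 CPM, against at most 0.0478, 262, 248, 104, 229 and 70.3 CPM in the others. That library had the lowest TMM factor, 0.794, against 0.986 to 1.07 in the other 6 tumours. Over all genes, 6057 were picked out, 2028 of them high in wild type 4 and 1461 in wild type 3. Over the genes tested, 2972 were picked out, 267 of them high in wild type 4 and 1281 in wild type 3. The part of either library's makeup in the members' values was not tested.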

How the results depend on the processing

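No member passed an adjusted p under 0.05 in fat or in the difference between tissues under any alternative run, and in tumours only Prdx4 did, with DESeq2 (1 member). Counts at an unadjusted p under 0.05 in fat were 11 lower and 0 higher; with no filter, and with the replicate block, 1 was higher, and the block gave 14 lower. Same-numbered fat libraries had correlations of -0.055, 0.148 and 0.155. The labels give no pairing in either tissue, so the block is only an alternative. In tumours the block gave 1 lower and 3 higher, against 3 and 4, and in the difference of effects it gave 9 lower and 1 higher, with 3 genes in all past the adjusted threshold. Leaving out 1 library gave 7 to 14 lower and 0 to 2 higher in fat, 0 to 6 lower and 1 to 5 higher in tumours, and 0 to 8 lower and 0 to 2 higher in the difference. Over all genes, the difference had 221 genes at an adjusted p under 0.05 without fat knockout 3 and 34 without tumour knockout 2, against 0 with every library; the cause was not tested. Directions turned without the libraries numbered 2 for Prdx1 in fat (0.0854) and for Gpx1 (-0.0918) and Prdx6 (0.13) in tumours; the cause was not tested. Leaving out single libraries turned the sign of Gstp1 (-0.90 to 0.0163), Prdx5 (-0.41 to 0.0877) and Sod3 (-0.59 to 0.61) in fat, and in tumours of the members' median (-0.37 to 0.10), Gpx1 (-0.0883 to 0.51), Gpx2 (-0.23 to 2.36), Gsta3 (-1.47 to 4.72), Gsta4 (-0.37 to 0.41), Gstt3 (-0.25 to 0.23), Prdx1 (-0.67 to 0.0863), Prdx6 (-0.60 to 0.0622) and Sod1 (-0.76 to 0.13). Fat depth is known only as an estimate from the steps between low values, which limits its low members.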
